A study of Mus musculus with 8 samples.

Results

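Cluster 5 is the smallest of the 6 groups into which the authors sorted lung group 2 innate lymphoid cells (ILC2s) by single-cell RNA sequencing. Its members are the cells with cluster number 5 in the authors' cell table, 913 of 9076 cells or 10.1%. The working name of the cluster comes from 3 genes. Il1r2 encodes a decoy receptor that binds IL-1 without signalling, Irf4 encodes a transcription factor induced in stimulated lymphocytes, and Ctla4 encodes an inhibitory receptor that competes with CD28 for its ligands. All 3 were higher in cluster 5 than in the other 8163 cells, in each of the 6 cell pools of IL-33-treated mice.

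ILC2s are tissue lymphocytes without antigen receptors that depend on the transcription factor GATA3. In the lung they respond to the epithelial alarmin IL-33 through the receptor encoded by Il1rl1, and they release IL-5, IL-13, GM-CSF and the growth factor amphiregulin. Stimulated lymphocytes express co-stimulatory and inhibitory receptors of the TNF receptor and CD28 families, and the factors IRF4 and BATF bind DNA together at composite sites with AP-1.

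The cells were sorted from lungs of wild type C57BL/6 male mice, labelled with antibody hashtags, pooled and run on 1 droplet (10x) library. The cell table gives hashtags 6, 7 and 8 to IL-33 plus dopamine, hashtags 3, 4 and 5 to IL-33, and hashtags 1 and 2 to PBS. Per the labels, IL-33 was given through the nose for 3 days, together with dopamine, a catecholamine transmitter, or its PBS vehicle. Separate bulk libraries (Smart-Seq2, 2000 ILC2s each) came from wild type C57BL/6 female mice, 3 given IL-33 plus dopamine and 3 given IL-33 plus PBS. No age is used here, and the labels do not state that a hashtag is 1 mouse, so p-values measure the spread between hashtags, which may be partly technical.

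To show the genes at the level of DNA, the start regions of 5 of them are printed, each with 250 bases before and 50 bases after the transcription start in RefSeq (GRCm38.p6), 5′ to 3′ on the gene's strand. Il1r2 (chr1:40085843-40086142, plus strand) and Irf4 (chr13:30748983-30749282, plus strand) are shown from the genes that name the cluster. Ctla4, also a naming gene, is not printed. Its window (chr1:60908775-60909074, plus strand) held no match to the motifs named below. Csf2 (chr11:54249850-54250149, minus strand) is shown as its most abundant leading cytokine gene, and Anxa2 (chr9:69453433-69453732, plus strand) and S100a11 (chr3:93520246-93520545, plus strand) as leading genes with an AP-1 match. Capitals mark matches on either strand to the AP-1 motif TGANTCA, to an NF-kB motif (GGG and CC with any 5 bases between them) and to an ETS-IRF composite motif (GGAA and GAAA with any 2 bases between them). The motifs were chosen after the leading genes were known. Adjoining or overlapping matches run together in capitals. The RefSeq starts of Il1r2 and Csf2 differ from those in GENCODE, the source of the gene positions given below. The printed Il1r2 window lies inside the GENCODE gene (chr1:40074079-40125231), and the Csf2 window lies wholly before the GENCODE start. Which start these cells use was not tested.

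Il1r2: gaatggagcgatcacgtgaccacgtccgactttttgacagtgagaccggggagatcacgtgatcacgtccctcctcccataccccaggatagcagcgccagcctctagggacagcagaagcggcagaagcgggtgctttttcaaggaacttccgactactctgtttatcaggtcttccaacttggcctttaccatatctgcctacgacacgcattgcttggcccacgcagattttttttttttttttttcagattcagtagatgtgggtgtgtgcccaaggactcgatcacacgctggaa

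Irf4: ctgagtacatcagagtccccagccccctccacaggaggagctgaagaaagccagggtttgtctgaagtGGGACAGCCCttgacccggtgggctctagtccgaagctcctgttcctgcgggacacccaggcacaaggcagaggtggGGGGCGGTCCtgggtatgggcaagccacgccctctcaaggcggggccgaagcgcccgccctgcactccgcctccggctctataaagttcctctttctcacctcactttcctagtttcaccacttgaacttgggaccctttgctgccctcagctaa

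Csf2: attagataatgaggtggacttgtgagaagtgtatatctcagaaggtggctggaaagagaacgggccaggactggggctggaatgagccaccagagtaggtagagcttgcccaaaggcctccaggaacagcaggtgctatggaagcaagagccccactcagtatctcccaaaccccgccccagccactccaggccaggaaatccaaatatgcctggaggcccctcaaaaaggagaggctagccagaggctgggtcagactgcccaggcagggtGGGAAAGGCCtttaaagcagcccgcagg

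Anxa2: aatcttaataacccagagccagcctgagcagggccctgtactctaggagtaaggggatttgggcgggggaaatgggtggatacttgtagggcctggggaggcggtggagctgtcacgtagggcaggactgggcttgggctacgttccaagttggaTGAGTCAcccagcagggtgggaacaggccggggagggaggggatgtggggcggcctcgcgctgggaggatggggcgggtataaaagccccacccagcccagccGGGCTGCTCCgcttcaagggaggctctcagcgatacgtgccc

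S100a11: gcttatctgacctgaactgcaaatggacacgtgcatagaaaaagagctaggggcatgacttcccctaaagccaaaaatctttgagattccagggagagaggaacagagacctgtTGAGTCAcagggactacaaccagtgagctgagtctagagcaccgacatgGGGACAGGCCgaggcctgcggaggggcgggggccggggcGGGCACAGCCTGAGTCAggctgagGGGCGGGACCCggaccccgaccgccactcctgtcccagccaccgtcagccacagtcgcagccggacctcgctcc

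The AP-1 motif lay in the windows of 5 of the 23 leading genes that RefSeq's table matched (5 of 25 windows), and in 7.81% of all 32851 windows of the same length. The 5 genes were AA467197, Anxa2, Bcl2a1b, Bcl2a1d and S100a11, of which Bcl2a1b and Bcl2a1d are near copies of each other. The loose NF-kB motif lay in 15 of the 25 windows, against 50.8% of all windows. The ETS-IRF composite motif lay in 1 of 25, that of Pcsk1, against 2.72%. Composite sites of AP-1 with IRF factors were not searched for. These matches describe the letters and show no binding.

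Cluster 5 cells were the deepest of the data. Their median was 8142 UMIs (unique molecule counts) and 2304 genes per cell, where the medians of the other 5 clusters ran between 4082 and 5480.5 UMIs and between 1432 and 1841 genes. In the 6 hashtags with IL-33, between 26.9% and 57.1% of cluster 5 cells per hashtag lay above the 90th percentile of UMIs of their own hashtag. The UMIs summed over cluster 5 numbered 728141, 1399693 and 133620 in hashtags 6, 7 and 8, against 2809045, 831684 and 1671435 in hashtags 3, 4 and 5. Hashtag 8 stood apart with 26 cells, where 1 UMI is worth 7.48 CPM (UMIs per 1000000 UMIs of the summed cells), and results are given with and without it where it decides them. The labels and files do not say how the authors treated doublets, droplets that hold a pair of cells, and no doublet caller was run. Several shares of cells with a UMI are therefore also given after every cell was thinned to 5028 UMIs, which kept 822 cluster 5 cells and 3211 others.

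The cells carried the ILC2 identity that the labels give them. All 12 ILC2 markers had UMIs in cluster 5, and their summed level was 8900 to 9350 CPM per hashtag in IL-33 plus dopamine and 8550 to 9450 CPM in IL-33, against 6820 to 8910 CPM in the other clusters. Gata3 averaged 954 ± 62.5 CPM in cluster 5 and 856 ± 140 CPM in the other clusters (SD over 6 hashtags), and Il1rl1 averaged 761 ± 92.4 CPM and 749 ± 52.2 CPM in the same order. Of 13 regulatory T cell genes in the table, 12 had UMIs in the 913 cells. Foxp3 and Cd4 had 1 UMI each and Lrrc32 had 0 UMIs, while Ikzf2 had 653, Nrp1 604, Il2ra 2020 and Tnfrsf18 2873 UMIs. Of the 7 members with at least 10 CPM, 3 were higher than in the other clusters in 6 of 6 hashtags (Ctla4, Tnfrsf4 and Nrp1) and 2 lower (Il2ra and Tnfrsf18). The summed level of this list was 983 to 1150 CPM in IL-33 plus dopamine and 783 to 890 CPM in IL-33, against 947 to 1230 CPM in the other clusters. Of 11 T cell genes in the table, 10 had UMIs, with Trbc2 at 4728, Trbc1 at 3150, Cd3g at 779, Cd3e at 27 and Cd8b1 at 0. Their summed level was 1240 to 1500 CPM in IL-33 plus dopamine and 1280 to 1640 CPM in IL-33, against 1300 to 1540 CPM in the other clusters.

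Among markers of other cells, the neutrophil gene S100a8 had 83 UMIs in 2 cells, 76 of them in a single cell of hashtag 5. A UMI of Lyz2, the myeloid lysozyme gene, was found in 0.548% of cluster 5 cells and in 0.221% of the other cells, and in 0.608% and 0.249% after thinning. The summed level of 10 dendritic cell genes was 127 to 267 CPM in IL-33 plus dopamine and 106 to 136 CPM in IL-33 within cluster 5, against 38.1 to 52.4 CPM in the other clusters. Most of that sum was Cd74, the invariant chain of MHC class II, and Ccr7, a chemokine receptor that guides cells to lymph nodes, with 453 and 349 UMIs. The rest were Zbtb46 with 116 UMIs, the MHC class II genes H2-Eb1, H2-Ab1 and H2-Aa with 70, 61 and 51, Batf3 with 19, Itgax with 13, Xcr1 with 8 and Fscn1 with 1. Hba-a1, a haemoglobin gene, had a UMI in 31.3% of cluster 5 cells and in 16.6% of the other cells. After thinning these shares were 24.9% and 21.4%. Cluster 5 held 771 UMIs of Hba-a1 and 123 of Hba-a2, but 7 of Hbb-bs, 5 of Hbb-bt and 1 of Alas2. Whether these UMIs came from free red cell RNA was not tested. The part of such cells or RNA in the values that follow was not tested.

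The genes below were ranked by the log2 ratio of cluster 5 over the other clusters, with 5 CPM added to both and averaged over the 6 hashtags with IL-33. Because the authors' clustering used these same cells, the ratios describe the cluster and are given without a test. A total of 30 leading genes had the highest ratios among genes with at least 50 CPM and a higher value in cluster 5 in 6 of 6 hashtags. Over all 7163 genes with at least 10 CPM, 11.9% were higher in 6 of 6 hashtags and 10.7% were lower. Thinning the cells left 21 of the 30 leading genes in the list.

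Il1r2 (chr1:40074079-40125231) was found in the fewest cells of the 3 naming genes. It stood at 61.8, 62.2 and 15 CPM in cluster 5 of hashtags 6, 7 and 8 (IL-33 plus dopamine), and at 72.3, 16.8 and 15 CPM in hashtags 3, 4 and 5 (IL-33). In the other clusters it stood between 0.788 and 4.80 CPM, so that every cluster 5 value lay above every other value (log2 ratio 2.72). The cluster 5 value of hashtag 8 rests on 2 UMIs in 1 cell, and with thinned cells Il1r2 was higher in 5 of the 6 hashtags. The hashtags fell into 3 high and 3 low ones, with both treatments on each side. At least 1 Il1r2 UMI was found in 9.2% of cluster 5 cells and 0.588% of the others, and in 7.18% and 0.81% after thinning. Its mean of 40.5 CPM kept it below the 50 CPM asked of leading genes. Il1r1, the signalling receptor whose ligand the decoy takes up, averaged 0.199 CPM in cluster 5 and 0.307 CPM in the other clusters.

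Irf4 (chr13:30749226-30766976) was even across hashtags. Its level in cluster 5 was 75.5, 126 and 112 CPM in IL-33 plus dopamine and 101, 99.8 and 82.0 CPM in IL-33, against 7.41 to 20.4 CPM in the other clusters (log2 ratio 2.41). Among single clusters, cluster 3 came next at 32.6 CPM and cluster 0 was lowest at 3.70 CPM. Thinned cells held an Irf4 UMI in 25.8% of cluster 5 and 5.54% of the others. Ctla4 (chr1:60887000-60915832) averaged 34.1 ± 13.8 CPM in cluster 5 and 6.14 ± 1.51 CPM in the other clusters (log2 ratio 1.81), with a UMI in 14.9% and 2.3% of cells, and in 10.5% and 2.3% after thinning.

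Even together with Tnfsf8, Cd83 and Tnfrsf4, the naming genes were not detected in every cell. Of 822 thinned cluster 5 cells, 60.9% held a UMI of at least 1 of Il1r2, Irf4, Ctla4, Tnfsf8, Cd83 and Tnfrsf4, 28.5% of at least 2 and 10.3% of at least 3, while 39.1% held none. This set of 6 was chosen after the ratios were seen. In the other clusters 20.9% held at least 1 and 0.405% at least 3. Clusters 3 and 1 came closest, with 30.6% and 24.4% holding at least 1. Within cluster 5, Tnfrsf4 was seen in 32.2% of thinned cells with an Il1r2 UMI and in 11.4% of those without, and Cd83 in 52.5% and 29.4%. These pairs had the widest gaps among all pairs of the 6 genes, and rest on 19 and 31 cells with both. No pair went the other way, but some were nearly even. Tnfsf8 was seen in 15.6% of cells with an Irf4 UMI and in 14.9% of those without. Cells of 1 library share its depth and free RNA, so these shares are descriptions.

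Co-stimulatory ligands and receptors headed the ranking. Tnfsf8, which encodes CD30 ligand, averaged 126 ± 74.9 CPM in cluster 5 and 13.8 ± 8.34 CPM in the other clusters (log2 ratio 2.80). Cd83, a surface protein of activated lymphocytes and dendritic cells, averaged 189 ± 91.8 CPM and 28.3 ± 5.99 CPM (2.54). Tnfrsf4, which encodes the co-stimulatory receptor OX40, averaged 78.1 ± 36.1 CPM and 10.5 ± 2.43 CPM (2.42). Tnfsf9, the gene of 4-1BB ligand, was also among the leading genes (1.05). Of the 19 measured checkpoint and co-stimulatory receptors, 7 were higher in 6 of 6 hashtags and 4 lower, with a median ratio of 0.21, against 0.01 over all 7163 genes. Higher members included Cd274, the PD-1 ligand gene (47.7 ± 12.4 and 25.6 ± 3.73 CPM), Pdcd1, the PD-1 gene (281 ± 90.6 and 177 ± 36.5 CPM), and the ILC2 maturation marker Klrg1 (191 ± 38.1 and 115 ± 13.6 CPM). Lower members were Cd27, Icos, Tnfrsf18 and Cd69, with Icos, which gives ILC2s a survival signal, at 241 ± 55 CPM in cluster 5 and 349 ± 96.4 CPM in the other clusters.

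Of 29 measured secreted effectors, 8 were higher in 6 of 6 hashtags and 1 lower (median ratio 0.28). Csf2, the gene of GM-CSF, was at 3030, 2520 and 2990 CPM in IL-33 plus dopamine and 2780, 2540 and 3320 CPM in IL-33 within cluster 5, against 1000 to 1140 CPM in the other clusters (1.39). It had a UMI in 92.6% of cluster 5 cells and 61.3% of the others, and in 90.6% and 68.6% after thinning. Among single clusters, cluster 3 stood at 2480 CPM and cluster 4 was lowest at 410 CPM. Il13 averaged 581 ± 96.6 CPM in cluster 5 and 295 ± 53.1 CPM in the other clusters (0.97), yet 1150 CPM in cluster 3 alone. Il5 averaged 659 ± 181 and 567 ± 164 CPM in the same order, was higher in 5 of 6 hashtags, and stood at 2450 CPM in cluster 3. After thinning, which keeps the deeper cells, the Il5 ratio of cluster 5 over the others turned to -0.59. Areg, the amphiregulin gene, averaged 1970 ± 495 and 1340 ± 193 CPM (0.555), with 3290 CPM in cluster 3. Areg was higher in 5 of 6 hashtags, and its ratio was 0.247 after thinning. The lower member was Calca, which encodes the neuropeptide CGRP, at 506 ± 88 CPM in cluster 5 and 1080 ± 273 CPM in the other clusters. Il10 was not analysed here. Of 12 measured genes that accompany Il10 expression in lymphocytes, 7 were higher in 6 of 6 hashtags (Irf4, Batf, Bhlhe40, Il1r2, Ctla4, Nfil3 and Cd44) and 1 lower (Il2ra), with a median ratio of 0.65. This list holds all 3 naming genes.

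Lymphocyte transcription factors were mixed. Of 34 measured, 15 were higher in 6 of 6 hashtags and 2 lower (median ratio 0.17). Batf, the partner of IRF4 at composite sites, averaged 81.4 ± 11 CPM in cluster 5 and 45.1 ± 3.56 CPM in the other clusters (0.79). Bhlhe40, a repressor that promotes cytokine expression in T cells, averaged 1500 ± 133 and 914 ± 74.3 CPM (0.71). Bcl6, the factor of follicular helper T cells, averaged 24.1 ± 15.2 and 8.31 ± 2.41 CPM (1.13). Prdm1, which encodes BLIMP-1 and often accompanies IL-10 in T cells, was not higher, at 22.3 ± 1.96 CPM in cluster 5 and 27.1 ± 3.07 CPM in the other clusters. Dusp4, a phosphatase that limits MAP kinase signalling, averaged 46.8 ± 9.97 and 9.39 ± 2.38 CPM (1.85). It was 1 of 3 immediate early genes, of 24 measured, that were higher in 6 of 6 hashtags.

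NF-kB genes were higher more often than the background. In this list 13 of 21 measured members were higher in 6 of 6 hashtags and 0 lower, with a median ratio of 0.37. They included Nfkbib and Nfkbie, which encode inhibitors that hold NF-kB in the cytoplasm, the signalling adaptor gene Traf1 (520 ± 36.3 CPM in cluster 5 and 321 ± 16.2 CPM in the other clusters), and Rel. Bcl2a1b and Bcl2a1d, which encode survival proteins of the BCL2 family, averaged 95.6 ± 31.2 and 198 ± 47.5 CPM in cluster 5, against 40.8 ± 5.53 and 94.6 ± 17.3 CPM in the other clusters. These near-identical copies can share reads, so the split between them is uncertain.

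Galectin, S100 and cytoskeleton genes had the largest share of higher members among the functional lists. Of the 20 members, 17 were higher in 6 of 6 hashtags and 1 lower, with a median ratio of 0.67. Lgals1, which encodes galectin-1, averaged 1130 ± 174 CPM in cluster 5 and 439 ± 114 CPM in the other clusters (1.35). Crip1 (1580 ± 197 and 615 ± 98.1 CPM), the calcium-binding S100a6 (1180 ± 218 and 556 ± 131 CPM) and the intermediate filament gene Vim (1250 ± 174 and 600 ± 106 CPM) had ratios between 1.05 and 1.35. Anxa2, a membrane-binding annexin, stood at 110, 191 and 202 CPM in IL-33 plus dopamine and 151, 103 and 114 CPM in IL-33 within cluster 5, against 41.8 to 64.1 CPM in the other clusters. Cluster 1 shared these genes, with Anxa2 at 98.4 CPM and Lgals3 at 47.1 CPM, against 145 and 50.6 CPM in cluster 5.

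Of the 30 leading genes, 26 had their highest mean in cluster 5, 3 in cluster 3 (Cxcl3, Bcl2a1d and Il13) and 1 in cluster 1 (S100a6). Among the other 5 clusters the highest mean was found in cluster 3 for 15 of the 30 and in cluster 1 for 13. Over all genes, the mean profile of cluster 5 was most like that of cluster 2 (Pearson r 0.97 on the log2 scale over 7156 genes that share a library), with cluster 1 at 0.967.

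**Figure D1:**
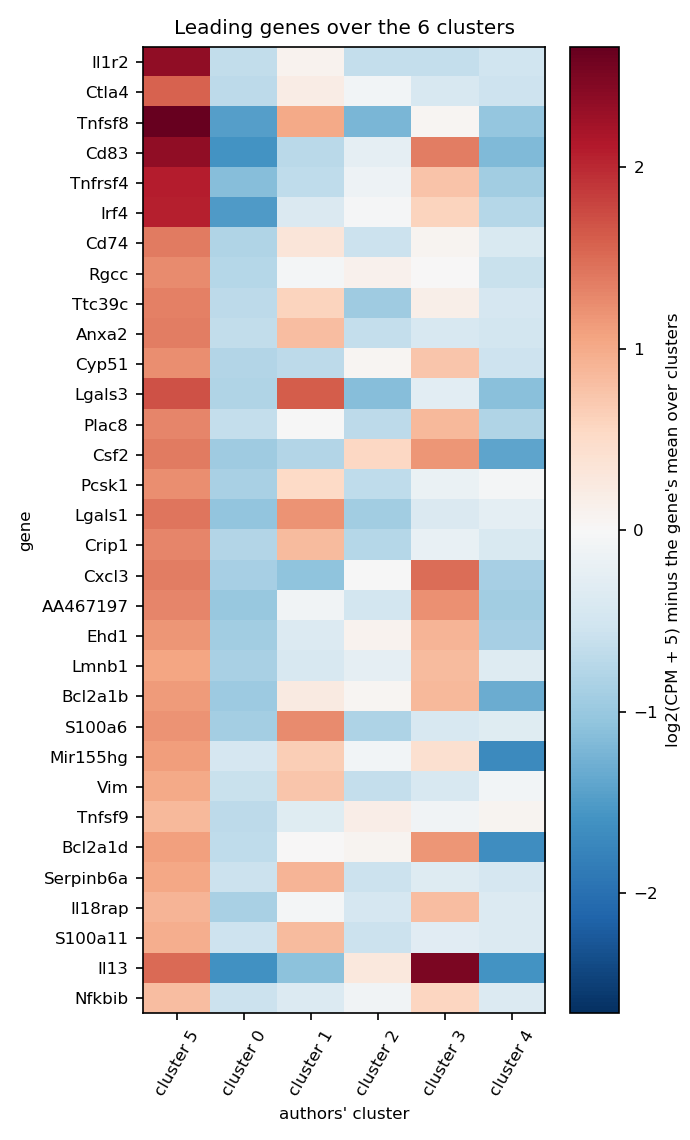
Mean level of Il1r2, Ctla4 and the 30 leading genes in cluster 5 and the other 5 clusters, as log2(CPM + 5) minus the gene's mean over the clusters, each cell of the map being the mean of the 6 hashtags with IL-33. Cluster 5 is the highest for 26 of the 30 leading genes, with Il13, Cxcl3 and Bcl2a1d higher in cluster 3 and S100a6 in cluster 1.

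Division genes were more often detected in cluster 5. Mki67, the usual proliferation marker, had a UMI in 12.9% of cluster 5 cells and 1.92% of the others, and in 7.3% and 1.93% after thinning. Top2a, a topoisomerase of dividing cells, was seen in 13.1% and 5.26% of thinned cells, and Ube2c, which targets mitotic proteins for degradation, in 5.84% and 0.685%. Of 24 measured proliferation genes, 9 were higher in 6 of 6 hashtags and 4 lower, among the lower ones Ccnd2, which encodes cyclin D2 (301 ± 33.5 CPM in cluster 5 and 384 ± 25.6 CPM in the other clusters).

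Tissue positioning genes were mixed. Of 21 measured members, 9 were higher in 6 of 6 hashtags and 2 lower (median ratio 0.29). Gpr183, an oxysterol receptor that positions lymphocytes, averaged 281 ± 89.3 CPM in cluster 5 and 155 ± 14.9 CPM in the other clusters, and Ccr7 averaged 41.5 ± 31.8 and 6.73 ± 3.14 CPM with 0 UMIs in cluster 5 of hashtag 8. Cd69, which keeps lymphocytes in tissue, was lower at 511 ± 56.2 and 672 ± 94.1 CPM.

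Lists of metabolism, secretion and stress were also counted. Of 77 measured nuclear genes of the respiratory chain, 9 were higher in 6 of 6 hashtags and 1 lower, a share near the background of 11.9%. Of 13 subunits encoded in mitochondrial DNA, 1 was higher and 4 lower. Glycolysis had 4 of 18 higher and 1 lower, with Hk1, which encodes a hexokinase, at 55.6 ± 13.3 CPM in cluster 5 and 36.7 ± 1.78 CPM in the other clusters. The unfolded protein response and secretion list had 7 of 20 higher and 0 lower, with Manf, which encodes an endoplasmic reticulum protein, at 150 ± 8.96 and 104 ± 6.57 CPM. Arg1, which encodes the arginine-degrading enzyme arginase-1, averaged 434 ± 96.2 and 224 ± 42.1 CPM. Cytosolic ribosome genes, a list added after the data were seen, had 45 of 82 lower and 6 higher, with a median of -0.09. Heat shock genes had 0 of 14 higher and 2 lower.

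The 15 genes with the lowest ratios were led by Tcrg-C1, a constant segment of the T cell receptor gamma chain, at 14.9 ± 2.14 CPM in cluster 5 and 51.4 ± 15.3 CPM in the other clusters (-1.50). Gimap3, a GTPase of lymphocyte survival, averaged 109 ± 35.6 and 237 ± 48.3 CPM (-1.08), and Calca had the same ratio. Dopamine receptor genes were not analysed here.

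The share of cells in cluster 5 varied widely between hashtags of the same treatment. With IL-33 plus dopamine it was 84 of 1252 cells in hashtag 6 (6.71%, exact 95% interval 5.39 to 8.24), 170 of 1197 in hashtag 7 (14.2%, 12.3 to 16.3) and 26 of 1475 in hashtag 8 (1.76%, 1.15 to 2.57). With IL-33 it was 327 of 1485 in hashtag 3 (22.0%, 19.9 to 24.2), 97 of 1092 in hashtag 4 (8.88%, 7.26 to 10.7) and 178 of 1516 in hashtag 5 (11.7%, 10.2 to 13.5). The intervals cover counting error only, and the groups overlapped, since hashtag 7 lay above hashtags 4 and 5. The share averaged 7.56% ± 6.26 with IL-33 plus dopamine and 14.2% ± 6.91 with IL-33 (SD, n = 3 each), a difference of -6.64 percentage points (exact permutation test, two-sided, p = 0.4, where 0.1 is the smallest p that 3 against 3 allows). Without hashtag 3 the difference was -2.73 and without hashtag 8 it was -3.74.

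Depth per cluster 5 cell was compared in the same way. The median cell held 7834.5, 7670.5 and 4707.5 UMIs in hashtags 6, 7 and 8, against 8398, 8053 and 9425 UMIs in hashtags 3, 4 and 5. The groups did not overlap, and the difference of -1890 UMIs had the smallest p the design allows (exact permutation test, two-sided, p = 0.1). Without hashtag 8 the difference was -873 UMIs. Median genes per cell averaged 2080 ± 395 and 2390 ± 91 in the same order (exact permutation p = 0.2).

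**Figure D2:**
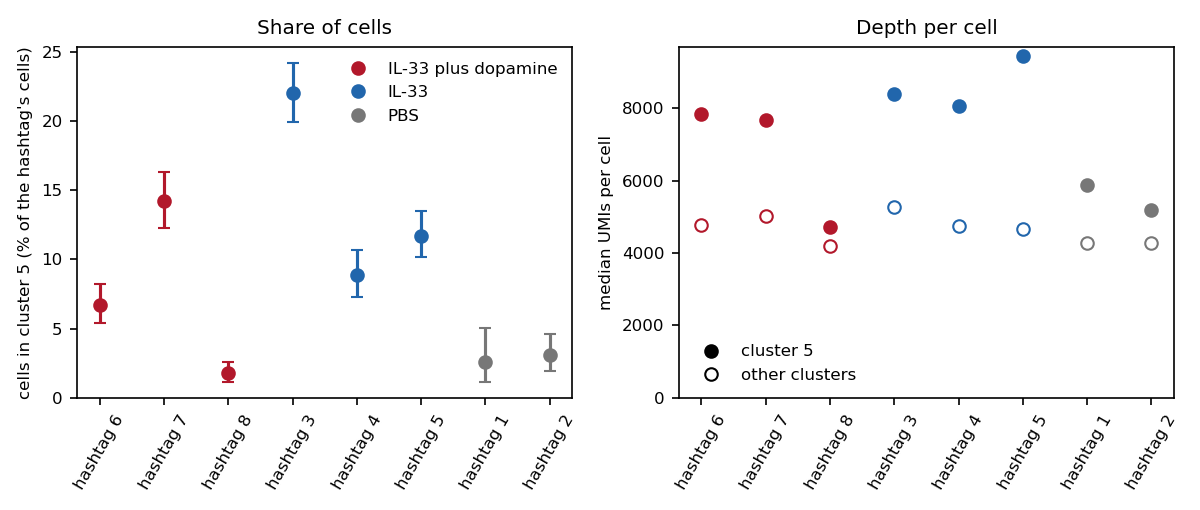
Left, cells of cluster 5 as a percent of each hashtag's cells, with exact 95% intervals for counting error; right, median UMIs per cell in cluster 5 (filled) and the other clusters (open), by hashtag and treatment. Shares run between 1.76% and 14.2% with IL-33 plus dopamine and between 8.88% and 22.0% with IL-33, and hashtag 8 is the shallowest of these 6 hashtags in cluster 5.

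The dopamine comparison within cluster 5 asked which genes differed between IL-33 plus dopamine and IL-33 in these cells. UMIs were summed per hashtag and tested with edgeR's quasi-likelihood test, 3 hashtags against 3. Of 7156 genes, 19 passed at an adjusted p under 0.05 (0.266%), 11 higher (0.154%) and 8 lower (0.112%), and 598 had an unadjusted p under 0.05. For 18 of the 19 the groups did not overlap, where 8.41% of all tested genes were higher and 6.2% lower without overlap. Removal of hashtag 7 left 1 of the 19 (Itgae), and removal of hashtag 5 left 6. All 19 stayed without hashtag 8, among 50 calls.

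Itgae (chr11:73090583-73147446), the integrin alpha E chain CD103 that binds E-cadherin on epithelium, rose. It stood at 45.3, 30.7 and 22.5 CPM in cluster 5 of hashtags 6, 7 and 8, against 8.19, 3.61 and 4.19 CPM in hashtags 3, 4 and 5. All 3 dopamine values lay above all 3 IL-33 values (log2 fold change 2.47 ± 0.33 SE, edgeR adjusted p = 0.000484). They rest on few molecules, with 33, 43 and 3 UMIs in 12, 16 and 2 cells with dopamine, and 23, 3 and 7 UMIs in 18, 3 and 6 cells with IL-33. In the other clusters Itgae was between 1.00 and 5.73 CPM in all 6 hashtags. Alcam, which encodes the cell adhesion molecule CD166, was at 43.9, 47.2 and 44.9 CPM with dopamine and 19.9, 19.2 and 19.1 CPM with IL-33 (1.19 ± 0.22 SE, edgeR adjusted p = 0.00768). Palld, which encodes the actin-binding protein palladin, was at 41.2, 35.0 and 22.5 CPM with dopamine and 7.12, 12 and 14.4 CPM with IL-33 (1.75 ± 0.29 SE, edgeR adjusted p = 0.00432). For both genes the groups were apart. Both calls were lost without hashtag 7, where the log2 fold changes were 1.15 and 1.83, and with thinned cells. Palld was at 1.14 (edgeR adjusted p = 0.419) when the deepest and the shallowest cluster 5 cells of each hashtag were left out. The call on Alcam was also lost without hashtag 5.

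Tnfrsf4, a leading gene of the cluster, rose with dopamine. Its level was 89.3, 131 and 105 CPM in hashtags 6, 7 and 8, against 43.4, 58.9 and 41.3 CPM in hashtags 3, 4 and 5, and the groups were apart (log2 fold change 1.25 ± 0.18 SE, edgeR adjusted p = 0.000511; 0.984 without hashtag 7, adjusted p = 0.30). In the other clusters it was at 10.5, 15 and 8.35 CPM with dopamine and 10.8, 8.41 and 9.96 CPM with IL-33, and the difference between the responses did not pass (0.91, edgeR adjusted p = 0.0771). Ttc39c, which encodes a tetratricopeptide repeat protein, was the other leading gene that passed (1.19 ± 0.21 SE, edgeR adjusted p = 0.00564). Its call was lost without hashtag 5 or 7 taken singly (0.945 without hashtag 7, adjusted p = 0.49). It was also lost with thinned cells and when the deepest and the shallowest cluster 5 cells were left out. The naming genes did not pass: the edgeR log2 fold change was 0.46 for Il1r2 (adjusted p = 0.802), 0.13 for Irf4 (0.902) and 0.45 for Ctla4 (0.638).

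Il4, the gene of interleukin 4, was at 64.5, 106 and 112 CPM with dopamine and 39.5, 58.9 and 49.7 CPM with IL-33 (0.91 ± 0.20 SE, edgeR adjusted p = 0.0385). The gap between the groups was small, 58.9 to 64.5 CPM, and the call was lost without hashtag 3, 4, 5 or 7 taken singly. Il5 and Il13 did not pass, with log2 fold changes of 0.25 and 0.25 (edgeR adjusted p = 0.764 and 0.619), and Areg was at -0.36 (0.458). Ramp3, which encodes a co-receptor for calcitonin family peptides, rose in cluster 5 at 345, 409 and 584 CPM with dopamine and 201, 224 and 200 CPM with IL-33 (0.96 ± 0.14 SE, edgeR adjusted p = 0.000511; adjusted p = 0.072 without hashtag 7). In the other clusters Ramp3 had a log2 fold change of 0.73 and did not pass (adjusted p = 0.25). Odc1, the enzyme that starts polyamine synthesis, was at 740, 926 and 726 CPM with dopamine and 550, 487 and 591 CPM with IL-33 (0.54, edgeR adjusted p = 0.0346), and Tent5a, a cytoplasmic poly(A) polymerase, rose as well (0.70, edgeR adjusted p = 0.0135). Without hashtag 7 their changes were 0.41 and 0.44, and neither passed. The call on Odc1 was also lost without hashtag 3, 4, 5 or 6 taken singly and by DESeq2, an alternative test. That on Tent5a was also lost without hashtag 3, 4 or 5. Akap12, a scaffold of protein kinase A, passed at 1.66, but its 7.48 CPM in hashtag 8 came from 1 UMI, and 73 of the 100 UMIs in hashtag 6 came from 1 cell. Gm47283, a predicted gene annotated on chromosome Y, was the last of the 11. It was also at 159 to 249 TPM with dopamine and 106 to 228 TPM with PBS in the bulk libraries labelled female, so its reads cannot be assigned to that chromosome alone.

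Of the 8 genes that fell, Zfp36 was the most abundant. It encodes tristetraprolin, which speeds the decay of cytokine mRNAs, and stood at 346, 221 and 254 CPM in cluster 5 of hashtags 6, 7 and 8, against 468, 482 and 437 CPM in hashtags 3, 4 and 5 (-0.79 ± 0.14 SE, edgeR adjusted p = 0.00564; -0.55 without hashtag 7, adjusted p = 0.36). The groups were apart, but the call was also lost with thinned cells (-0.61, edgeR adjusted p = 0.076). Plin2, which coats lipid droplets, was at 68.7, 37.2 and 37.4 CPM with dopamine and 95.4, 97.4 and 98.7 CPM with IL-33 (-1.04 ± 0.20 SE, edgeR adjusted p = 0.0119). The call on Plin2 was lost without hashtag 5 or 7 taken singly (-0.65 without hashtag 7), with thinned cells and by DESeq2. Cenpe and Cenpf, kinetochore proteins of dividing cells, were at 4.12 to 7.48 and 0 to 8.57 CPM with dopamine, and at 16.0 to 29.3 and 19.2 to 45.7 CPM with IL-33 (-1.88 and -1.93, edgeR adjusted p = 0.0347 and 0.0381). With dopamine these levels rest on 3, 10 and 1 UMIs of Cenpe and 4, 12 and 0 UMIs of Cenpf, and in hashtag 8 a count of 0 allows up to 22.5 CPM. Both calls were lost without hashtag 4, 5, 6 or 7 taken singly. Mki67 (-0.27, adjusted p = 0.893) and the other members of the proliferation list did not pass, 0 of 24. The remaining 4 were Mns1, Lztfl1, Gm20627 and Dtnbp1.

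**Figure D3:**
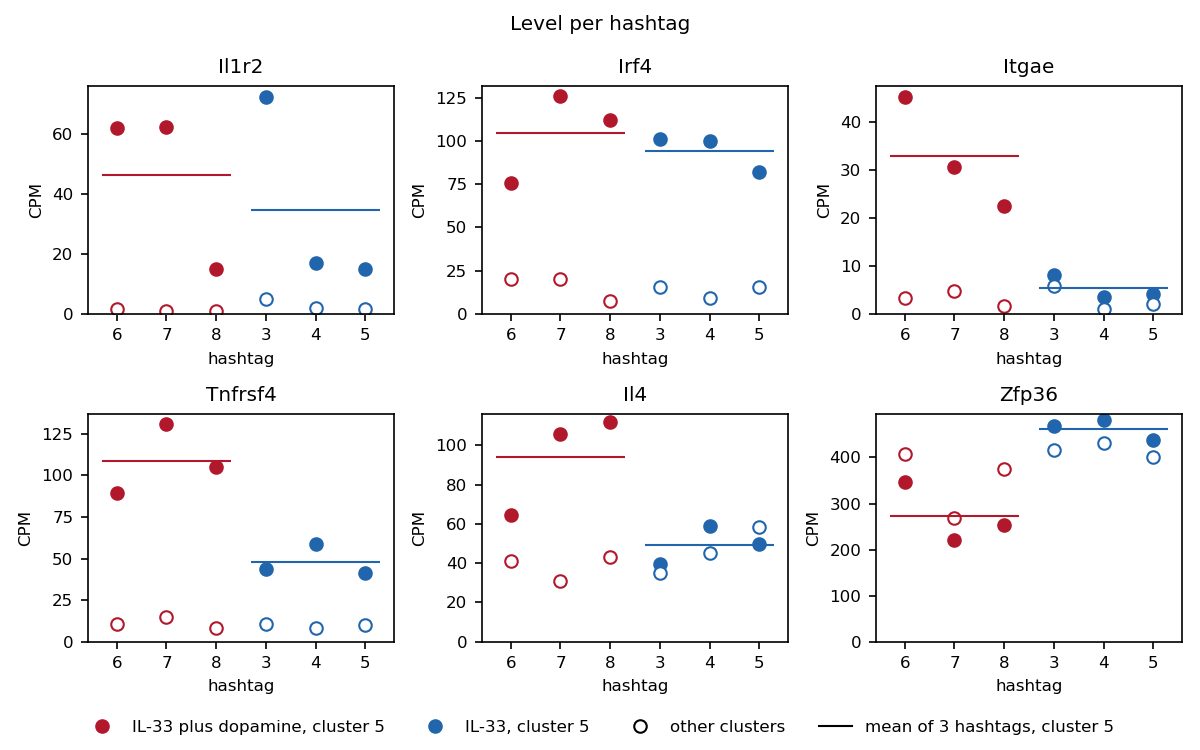
Level in CPM of 6 genes in cluster 5 (filled) and the other clusters (open) by hashtag, with IL-33 plus dopamine on the left and IL-33 on the right; lines are the means of 3 hashtags in cluster 5. Il1r2 splits the hashtags without regard to treatment, while Itgae, Tnfrsf4 and Il4 are higher and Zfp36 lower with dopamine in cluster 5.

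Among the lists, few members passed in cluster 5. Passing members were Tnfrsf4 among 20 tested checkpoint and co-stimulatory receptors, Il4 among 29 secreted effectors, Itgae among 21 residency genes, Ramp3 among 5 catecholamine and neuropeptide receptors, Odc1 and Plin2 among 18 lipid and arginine genes, and Zfp36 among 25 immediate early genes. In the NF-kB list (21 tested), the transcription factors (32), glycolysis (18), the galectin list (19) and the nuclear respiratory chain (77), 0 passed. In the last of these, 2 members were higher and 10 lower without overlap, against 8.41% and 6.2% of all genes.

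The other clusters together had 3 of 10420 genes past the same test (0.0288%), Cd3g, Actn2 and Ltb4r1, all lower with dopamine, and none of the 19. Of the 19, 8 had an unadjusted p under 0.05 with the same sign in the other clusters. The share of all genes that did so was not counted, and both sets of cells share hashtags and a library. The 8 are therefore a description. A gene that passes in cluster 5 alone is not thereby shown to differ, so the difference was tested as an interaction term in a fit with the hashtag as a block.

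**Figure D4:**
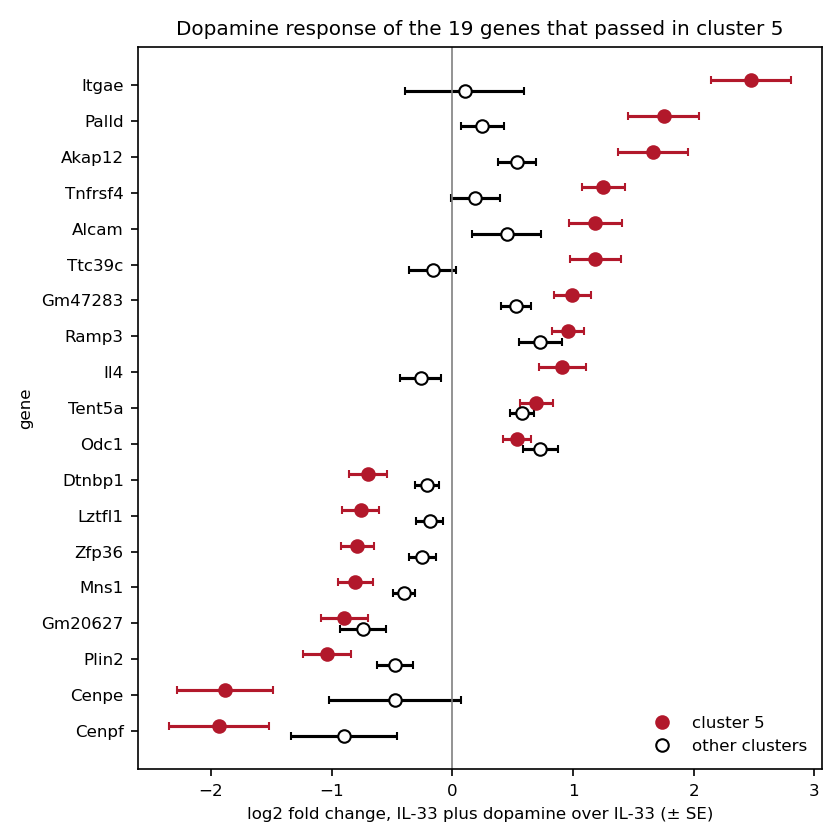
Log2 fold change of IL-33 plus dopamine over IL-33, with its standard error, in cluster 5 (filled) and in the other clusters (open) for the 19 genes that passed in cluster 5. The filled and open points of Itgae and Palld lie apart, and those of Ramp3, Tent5a, Odc1 and Gm20627 lie close together.

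By that test the dopamine response of cluster 5 differed from that of the other clusters for 29 of 10121 genes (0.287%), 11 with a higher response in cluster 5 (0.109%) and 18 with a lower one (0.178%), and 629 had an unadjusted p under 0.05. Of these 29, 6 also passed within cluster 5: Itgae, Palld, Akap12, Ttc39c, Zfp36 and Il4. Only 4 passed when cells were thinned to equal UMIs, an alternative added after the data were seen, and these were Ptgs2, Il4, Areg and Il2. With cluster 2, the nearest, as the sole comparison 4 passed, 1 of them among the 29. Hba-a1, the haemoglobin gene, was also among the 29 (-0.73, edgeR adjusted p = 0.0164). So was Il17f (-3.21, edgeR adjusted p = 0.0179), on 0, 10 and 0 UMIs in cluster 5 with dopamine and 11, 1 and 25 UMIs with IL-33. The part of free RNA in these differences was not tested.

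Ptgs2, which encodes the prostaglandin-forming enzyme COX-2, was at 96.1, 93.6 and 22.5 CPM in cluster 5 with dopamine and 90.8, 176 and 151 CPM with IL-33. In the other clusters it was at 59.7, 77.3 and 27.9 CPM with dopamine and 30.3, 44.0 and 55.7 CPM with IL-33. The groups overlap in both sets, with opposite tendencies, and the difference of the log2 fold changes was -1.28 ± 0.18 SE (edgeR adjusted p = 2.11e-08). It was 0.05 when the deepest and the shallowest 10% of each hashtag's cells, taken over all clusters, were left out. At the deep end alone that cut removed between 26.9% and 57.1% of cluster 5 cells per hashtag.

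Areg was at 2060, 1930 and 1160 CPM in cluster 5 with dopamine and 1770, 2290 and 2620 CPM with IL-33, and at 1300, 1500 and 1610 CPM against 1060, 1230 and 1340 CPM in the other clusters. The cluster 5 value of hashtag 8 was the lowest (difference -0.65 ± 0.11 SE, edgeR adjusted p = 3.98e-05; -0.39 without hashtag 8, adjusted p = 0.072). Il4 differed by 1.21 ± 0.20 SE, with 41.3, 30.7 and 43.0 CPM in the other clusters under dopamine and 34.8, 45.0 and 58.6 CPM under IL-33 (edgeR adjusted p = 1.25e-05; 0.70 without hashtag 7, adjusted p = 0.58). Itgae differed by 2.39 ± 0.51 SE (edgeR adjusted p = 0.0036), a call lost without hashtag 3 or 6 and with thinned cells. Its difference was 0.12 when the deepest and the shallowest cells of each hashtag, over all clusters, were left out. Zfp36 differed by -0.50 (edgeR adjusted p = 0.0296), by -0.16 under that same cut and by -0.25 with thinned cells, and passed in neither. Il1r2 differed by 1.80 (edgeR adjusted p = 0.0304), a call lost without any single hashtag, on levels in the other clusters of 0.788 to 1.52 CPM with dopamine and 1.73 to 4.80 CPM with IL-33. The lower responses included Hilpda, a lipid droplet protein induced by hypoxia (-0.61), Nr4a1, an orphan nuclear receptor (-0.57), Gpr183 (-0.61) and the cytokine gene Il2 (-0.61), and Socs1, a feedback inhibitor of cytokine signalling, was among the higher ones (0.98). With the nearest cluster alone Hilpda and Nr4a1 differed by -0.24 and -0.33, and neither passed there or with thinned cells. Gpr183 ran between -0.92 (without hashtag 7) and -0.42, and its call was lost without hashtag 4, 6 or 8. Il2 was at -1.0 without hashtag 6 and -0.33 without hashtag 7, and its call was lost without hashtag 3, 5, 7 or 8. Socs1 was at 0.37 when the deepest and the shallowest cells of each hashtag, over all clusters, were left out. The call on Socs1 was lost without hashtag 5, 6 or 7.

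The share in cluster 5 was 8.88% to 22.0% in the 3 hashtags with IL-33, against 8 of 311 cells (2.57%, exact 95% interval 1.12 to 5.01) and 23 of 748 cells (3.07%, 1.96 to 4.58) in PBS hashtags 1 and 2. With 51671 and 124817 UMIs in the PBS hashtags, a count of 0 allows up to 58.1 and 24.0 CPM, and no test was run. Irf4 was at 101, 99.8 and 82.0 CPM with IL-33 and 58.1 and 104 CPM with PBS, so the ranges overlap. Il1r2 was at 72.3, 16.8 and 15 CPM with IL-33 and had 0 UMIs in both PBS hashtags, and only the value of hashtag 3 lay above both limits. Calca was at 560, 595 and 561 CPM with IL-33 and 968 and 945 CPM with PBS.

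The bulk libraries show the leading genes in independent female mice, but over all ILC2s. In bulk, fewer cells of a type and less RNA per cell cannot be told apart. Values are the authors' TPM, tested with limma on log2(TPM + 1). The median log2 fold change of all genes was 0.49, so each gene's change is given as tested and also relative to that median, and the SE and p belong to the change as tested. Genes reaching 1 TPM numbered 11502, 11529 and 11745 in the dopamine libraries and 11384, 9822 and 10525 in the PBS libraries. Whether this difference in detected genes moved the median was not tested, so the relative values depend on that centring. Of the 30 leading genes, 18 were lower with dopamine and 12 higher as tested, with a median of -0.23. Of all 11222 genes tested, 3211 were lower and 8011 higher. Csf2, at 2860 CPM in cluster 5, was low in bulk, at 2.18, 0 and 8.07 TPM with dopamine and 6.13, 0 and 2.35 TPM with PBS. Relative to all genes, 22 of the 30 leading genes were lower and 8 higher, with a median of -0.72. Without overlap, 3 were higher and 10 lower without overlap, against 23.5% and 6.57% of all 11222 tested genes. None passed at an adjusted p under 0.05 (0.0356% of all genes did), while 14 of 30 had an unadjusted p under 0.05, against 24.1% of all genes. The 14 lowest genes measured had a median of 1.00 as tested and 0.50 relative to all genes, with 8 higher and 0 lower without overlap.

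Il1r2 was at 182, 60.7 and 42.8 TPM in bulk with dopamine, against 288, 294 and 299 TPM with PBS vehicle, and the groups were apart (log2 fold change -1.90 ± 0.44 SE, limma adjusted p = 0.0832; -2.39 relative to all genes). Within cluster 5 its log2 fold change was 0.46. AA467197, a small protein gene that hosts miR-147, was at 15.6, 10.6 and 13.6 TPM with dopamine and 121, 136 and 56.5 TPM with PBS (-2.81 ± 0.40 SE, limma adjusted p = 0.0517; -3.30 relative). Lgals1 was at 1756, 1623 and 1605 TPM with dopamine and 2608, 3452 and 2852 TPM with PBS (-0.83 ± 0.14 SE, limma adjusted p = 0.0703; -1.32 relative), and Anxa2, Crip1, S100a6, S100a11 and Vim were likewise lower without overlap. Bcl2a1b went the other way at 172, 307 and 216 TPM with dopamine and 64.4, 55.3 and 127 TPM with PBS (1.54 ± 0.35 SE, limma adjusted p = 0.0832; 1.05 relative). Irf4 overlapped between the groups (0.21, limma adjusted p = 0.813; -0.28 relative, so that the sign turns with the scaling).

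Of the 19 genes that passed in cluster 5, 10 had the same sign in bulk as tested and 9 the opposite sign, 11 and 8 relative to all genes, and 0 passed. Itgae was at 82.6, 76.1 and 68.2 TPM with dopamine and 37.7, 5.47 and 13.3 TPM with PBS, apart in bulk too (2.32 ± 0.56 SE, limma adjusted p = 0.087; 1.82 relative). Odc1 was at 170, 199 and 333 TPM and 35.2, 21.4 and 105 TPM in the same order (2.35 ± 0.51 SE, limma adjusted p = 0.0832; 1.86 relative). Tnfrsf4 was opposite, at 40.3, 4.89 and 28.1 TPM with dopamine and 126, 144 and 49.8 TPM with PBS (-2.35 ± 0.68 SE, limma adjusted p = 0.106; -2.84 relative). Zfp36 was opposite as well, at 482, 587 and 689 TPM with dopamine and 194, 77.6 and 236 TPM with PBS (1.92 ± 0.37 SE, limma adjusted p = 0.0832; 1.43 relative). The bulk and single-cell libraries differ in sex and chemistry as well as in the cells they cover, and which of these the differences follow was not tested.

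**Figure D5:**
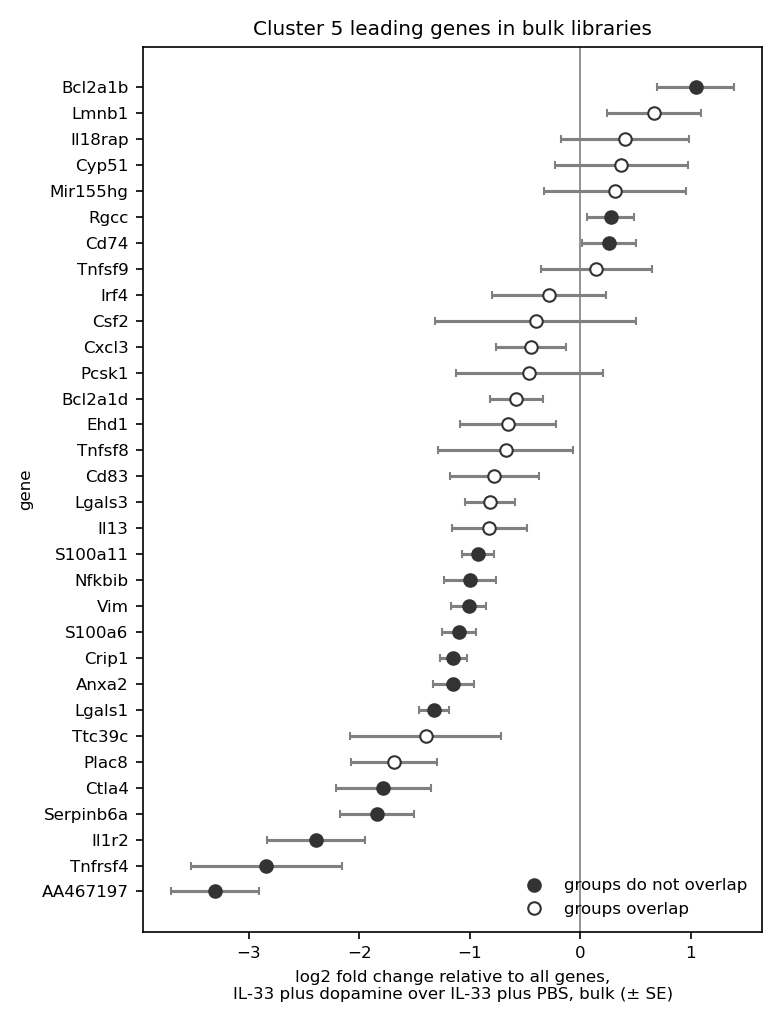
Log2 fold change of IL-33 plus dopamine over IL-33 plus PBS in bulk libraries, relative to the median of all genes, with the standard error of the change as tested, for Il1r2, Ctla4 and the 30 leading genes; filled points are genes whose 3 and 3 libraries do not overlap. Points reach -3.30 for AA467197 and 1.05 for Bcl2a1b, with 22 of the 30 leading genes below 0.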

How the data were processed

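The droplet file holds whole-number UMI counts for 15083 genes in 9076 cells, deposited by the authors with a cell table of hashtag, treatment and cluster. Per the submitters' processing notes, Cell Ranger 6.1.1 and Seurat 4.0.2 were used for droplets, cutadapt 2.10, STAR 2.7.5c and RSEM 1.3.3 for bulk reads, and mm10 as the build. Bulk values are TPM, scaled per library by the authors as deposited, so their depth is unknown. The deposited UMAP coordinates are scores from the authors' embedding and were not analysed. The percent of mitochondrial UMIs per cell is the authors' own, as deposited.

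UMIs were summed per hashtag for cluster 5 and for the other clusters. Hashtags 6, 7 and 8 were compared with hashtags 3, 4 and 5 by edgeR 4.0.16 (TMM, filterByExpr, quasi-likelihood), with Benjamini-Hochberg adjustment over all genes. SEs were computed as the log2 fold change over the root of F. The interaction fit held 12 sums with the hashtag as a block. DESeq2 1.42.0 was an alternative. PBS was not tested, because hashtag 1 had under 20 cells. Bulk genes reaching 1 TPM in 3 or more of the 6 libraries were tested with limma 3.58.1 (trend) on log2(TPM + 1) in R 4.3.3. Equally numbered bulk libraries did not deviate together (r 0.0186, -0.071 and -0.00177). The scripts were tested on simulated data.

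Named genes are the 30 highest and 15 lowest ratios, the passing genes with at least 20 CPM, the 8 interaction genes with the smallest p, list members and a fixed set of genes. Cenpe, Cenpf, Akap12's cells and further interaction genes are named as list members or after their values were seen. Cluster 5, its gene lists and the comparisons were chosen with earlier results of these data known. List members were counted from 10 CPM, a minimum set after the data were seen. Gene positions are from GENCODE M21 (GRCm38).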

Additional observations from a re-analysis of the deposited data

Results flagged for a closer look

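The dopamine response differed between cluster 5 and the other clusters, by a test of the interaction itself, for 29 genes. The 8 with the smallest p, each with the difference of log2 fold changes (cluster 5 minus the other clusters), were Ptgs2 at -1.276, Gm26802 at 2.292, Il4 at 1.205, Areg at -0.652, Hilpda at -0.614, Nr4a1 at -0.572, Ttc39c at 1.237 and Mt1 at 2.59. Gm26802 was at 6.87, 7.14 and 239 CPM in cluster 5 with dopamine and 10.3, 10.8 and 8.97 CPM with IL-33, so hashtag 8 alone carried it, with 32 UMIs in 7 cells, and the difference was 0.996 without it. Mt1 was at 4.12, 31.4 and 7.48 CPM with dopamine and 3.92, 3.61 and 4.19 CPM with IL-33, and hashtag 7 carried it with 44 UMIs in 5 cells. Hilpda was at 927, 845 and 1040 CPM in cluster 5 with dopamine and 1090, 1160 and 1040 CPM with IL-33, where the other clusters held 1140, 1270 and 1610 CPM and 961, 1130 and 1090 CPM.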

How the results depend on the processing

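The count of 19 genes within cluster 5 was 7 by DESeq2, 83 without a filter on low counts and 9 at a mean of at least 50 CPM. It was 11 with cells between the 10th and 90th percentile of UMIs of each hashtag's cluster 5 cells, and 11 with thinned cells. Leaving out a hashtag gave between 1 (hashtag 7) and 50 (hashtag 8) calls, with 30 without hashtag 3, 13 without hashtag 4 and 7 without hashtag 5. The interaction count of 29 was 4 against the nearest cluster and 4 with thinned cells. It was 8 with cells between the same percentiles, here taken over all cells of each hashtag. With a hashtag left out it ran between 12 (without hashtag 8) and 47 (without hashtag 6), with 14 without hashtag 5 and 19 without hashtag 7. Median-of-ratios size factors gave 19 and 28. The Ptgs2 difference turned to 0.054 with cells between the percentiles, and that of Mt1 to -0.381 without hashtag 7; the cause was not tested. The difference in share ran between -9.96 and -2.73 and that in UMIs between -2440 and -873 with a hashtag left out, both of the same sign throughout. Other weights and thinning shared 21 to 28 of the 30 leading genes, and leaving out a hashtag 23 to 27. The bulk median of the leading genes ran between -0.825 and -0.431, the weaker with quantile normalization, and was -0.23 in the deposited values without centring on all genes, an alternative added after the data were seen, with 0 genes passing in the fit as reported, 6 without PBS library 1, 2 without PBS library 3, 1 with median-of-ratios scaling, 1 with quantile normalization and 1 with the replicate block (median -0.724); droplets carried no numbers that pair hashtags. Depth limits hashtag 8, where 3 UMIs stand for 22.5 CPM.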
